A study of Mus musculus with 16 samples.

Results

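The genes described here are 10 enzymes of tryptophan and arginine catabolism, measured by RNA-seq in the epidermis of the mouse footpad. Ido1, Afmid, Kynu, Kmo and Il4i1 act on tryptophan or its products, Arg1, Arg2, Nos2 and Ass1 use or make arginine, and Odc1 makes the first polyamine from the product of the arginases. They were chosen by gene symbol, and each symbol matched 1 of the 50600 gene identifiers in the count table. Each of the 10 had at least 10 counts in total over the libraries, so all of them were among the 22155 genes tested.

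Epidermal cells came from 16 female C57/B6J mice, 1 library per mouse and 4 mice in each of 4 groups. From 5 wk of age and for 3 wk, mice were fed the purified AIN-93M diet, which is poor in ligands of the aryl hydrocarbon receptor (AhR-poor diet), or that diet with 200 ppm of indole-3-carbinol, a plant precursor of AhR ligands (I3C diet). The footpad received 50 μl of PBS, with no addition (vehicle) or containing 50 μg of the protease allergen papain, and cells were taken after 6 hr, following removal of the dermis with dispase and of dead cells. Mice of one diet shared a cage, so diet and cage cannot be told apart. The comparisons below ask which of these enzymes differed between the diets under each treatment, which differed between papain and vehicle on each diet, and whether the papain response itself differed between the diets.

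Tryptophan is opened by Ido1 to formylkynurenine, which Afmid turns into kynurenine. Kynu and Kmo carry kynurenine further, toward anthranilate and 3-hydroxykynurenine, while Il4i1, a secreted amino acid oxidase, turns tryptophan into indole-3-pyruvate. Kynurenine and products of indole-3-pyruvate are ligands of AhR, the receptor whose dietary ligands were varied here. Arginine is split by the arginases Arg1 and Arg2 into urea and ornithine or oxidised by Nos2 to nitric oxide and citrulline, Ass1 starts the return of citrulline to arginine, and Odc1 turns ornithine into putrescine. In skin, Arg1, Nos2 and Il4i1 are best known from macrophages and dendritic cells, whereas keratinocytes of the epidermis divide and use the polyamine branch.

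Library totals ranged from 22500821 to 51844375 counts, and 3 counts, used as the detection floor, equalled 0.0569 to 0.130 CPM (counts scaled to library size, with TMM factors from edgeR), a limit that covers counting error only. Markers of keratinocytes dominated every library, as the label of epidermal cells says: 6 basal markers summed to 20726 to 36779 CPM and 6 suprabasal markers to 18831 to 43676 CPM. Markers of other cells differed between the groups. The 10 monocyte and macrophage markers summed to 44.3 to 54.2 CPM with vehicle and 80.4 to 252 CPM with papain on the AhR-poor diet, and to 12.6 to 22.7 and 7.56 to 30.6 CPM on the I3C diet, where Fcgr1 was at 0 with vehicle. The 8 neutrophil markers summed to 3.59 to 4.21 and 68.8 to 450 CPM on the AhR-poor diet and to 0.739 to 1.62 and 36.2 to 47.9 CPM on the I3C diet, where Ly6g and Camp were at 0 in all 8 libraries, as was Ly6g with vehicle on the AhR-poor diet. The 8 dermal fibroblast markers summed to 101.5 to 181 and 271 to 671 CPM on the AhR-poor diet and to 9.79 to 13.7 and 2.31 to 11.7 CPM on the I3C diet. Papain libraries T105 and T112 of the AhR-poor diet were the highest and the lowest of their group for the macrophage, neutrophil and fibroblast sums, and T106 was the highest of the I3C papain group for the macrophage and fibroblast sums. The 6 Langerhans cell markers, the most abundant of the lists beside the keratinocytes, summed to 766 to 868 and 724 to 917 CPM with vehicle and papain on the AhR-poor diet and to 231 to 525 and 203 to 601 CPM on the I3C diet, again with T106 the highest of the I3C papain group, and between the diets 0 of the 6 were called with vehicle and 1 with papain. The 6 T cell markers summed to 75.5 to 107.2 CPM and 166 to 227 CPM on the AhR-poor diet and to 82.9 to 108.2 CPM and 160 to 183 CPM on the I3C diet. Between the diets, 0 of these 6 were called with vehicle and 2 were called higher on the AhR-poor diet with papain. Their median log2 fold changes were 0.75 and 1.37, although the sums overlapped. In such bulk samples, fewer cells of a type and less RNA per cell cannot be told apart.

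The 10 enzymes differed widely in level. Per kilobase of exonic length and averaged over the 16 libraries, Odc1 held 58.8 CPM, Ass1 28.8 CPM and Arg2 7.08 CPM. The other 7 lay between 0.0201 CPM per kilobase for Nos2 and 0.341 for Il4i1. Odc1, Ass1 and Arg2 were therefore measured on 6341 to 118921 counts over all libraries, and the others on 57 to 810, which limits what can be seen for them.

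**Figure D1:**
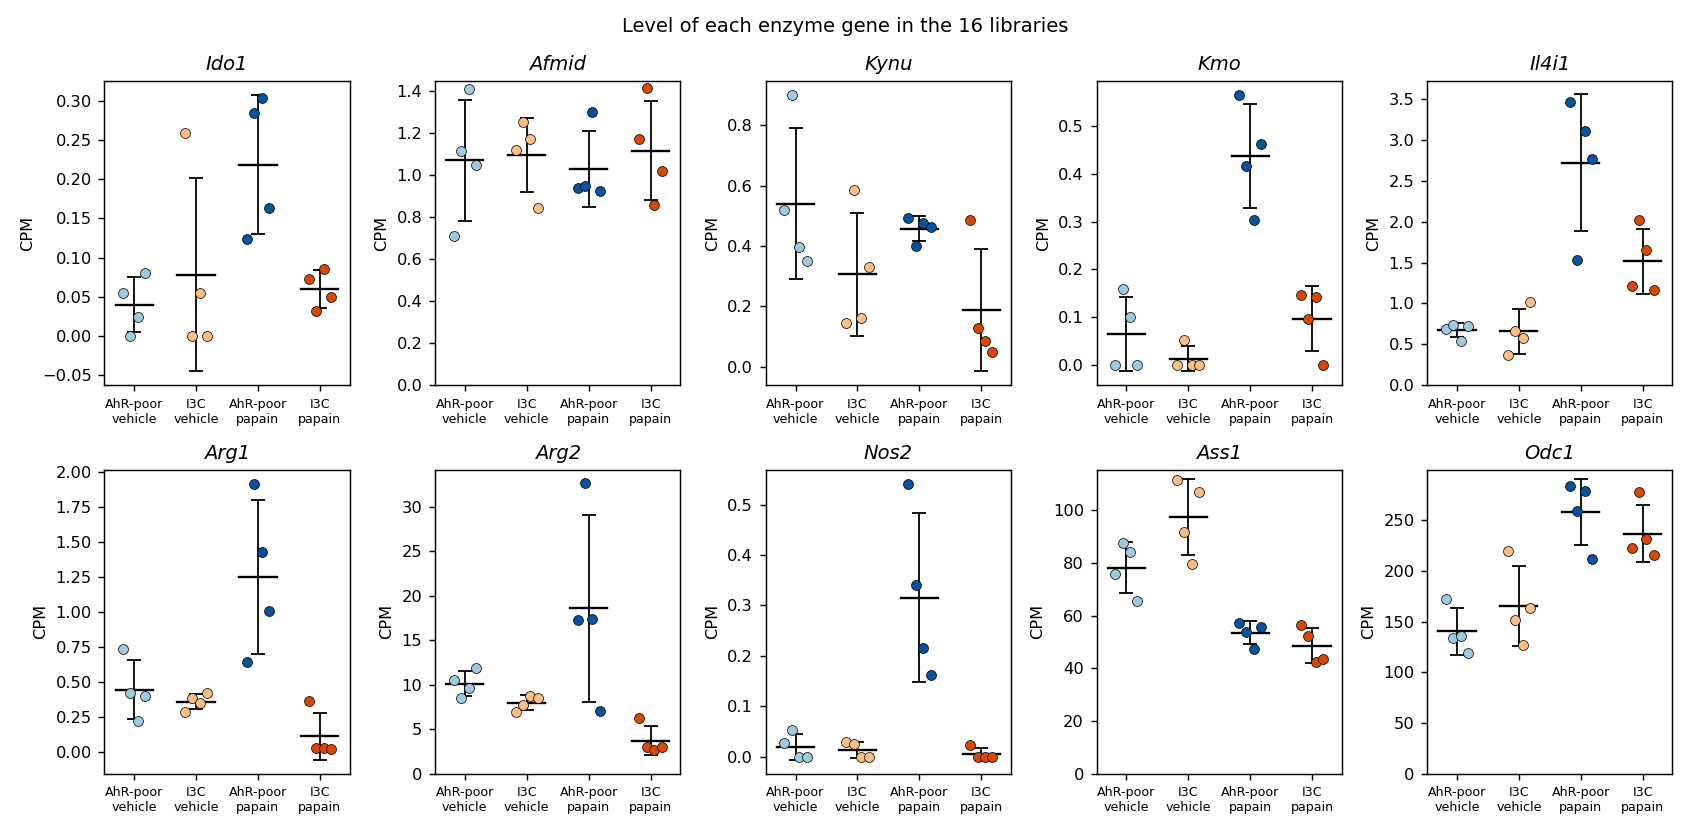
CPM of each of the 10 enzyme genes (vertical axis, own scale per gene) in the 4 groups, with 1 point per library, the mean as a horizontal line and the SD as an error bar. Arg1, Arg2, Nos2, Kmo and Ido1 had a higher CPM in every AhR-poor papain library than in any I3C papain library, as did 12.5% of all genes, and Ass1 was lower with papain than with vehicle on both diets.

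Calls come from the quasi-likelihood F test of edgeR and needed an adjusted p (Benjamini-Hochberg) under 0.01 together with a log2 fold change of more than 1 in either direction. With vehicle, none of the 10 differed between the diets, higher or lower on the AhR-poor diet, where 1.59% of all genes were called higher and 0% lower. At an unadjusted p under 0.05, 0 were higher and 1 lower (Ass1), against 8.94% and 3.54% of all genes, and DESeq2 also called 0, against 2.69% and 0.0271%. With papain, 3 of the 10 stood higher in AhR-poor than in I3C mice (Arg1, Arg2 and Nos2) and 0 lower, against 7.15% and 0.0993% of all genes. After papain on the AhR-poor diet, 3 rose (Il4i1, Kmo and Nos2) and 0 fell, against 6.04% and 2.42% of all genes. On the I3C diet 1 rose (Il4i1) and 1 fell (Ass1), against 3.69% and 5.29%. Nos2, counted among the 3 both times, passed the filter of 10 counts only through the AhR-poor papain group, where it was high. The median log2 fold change of the 10 was 0.17 between diets with vehicle, 1.5 between diets with papain, 1.18 for papain on the AhR-poor diet and -0.50 for papain on the I3C diet, beside medians over all genes of -0.01, 0.01, -0.00 and -0.04. The scaling assumes that most genes do not differ, so all-gene medians near 0 follow from it. The median absolute value over all genes was 0.17, 0.29, 0.40 and 0.45 in the same order. The 1.5 lies between Kynu (1.22) and Ido1 (1.77), neither of them called. The 10 were chosen with earlier results of these data known, so their medians are a description. The comparisons that share a group share its libraries, so they are not independent of each other. Single genes were also compared by exact permutation (two-sided, on log2(CPM + 0.5)), where 4 libraries against 4 cannot give a p below 0.0286, the value of groups that do not overlap.

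**Figure D2:**
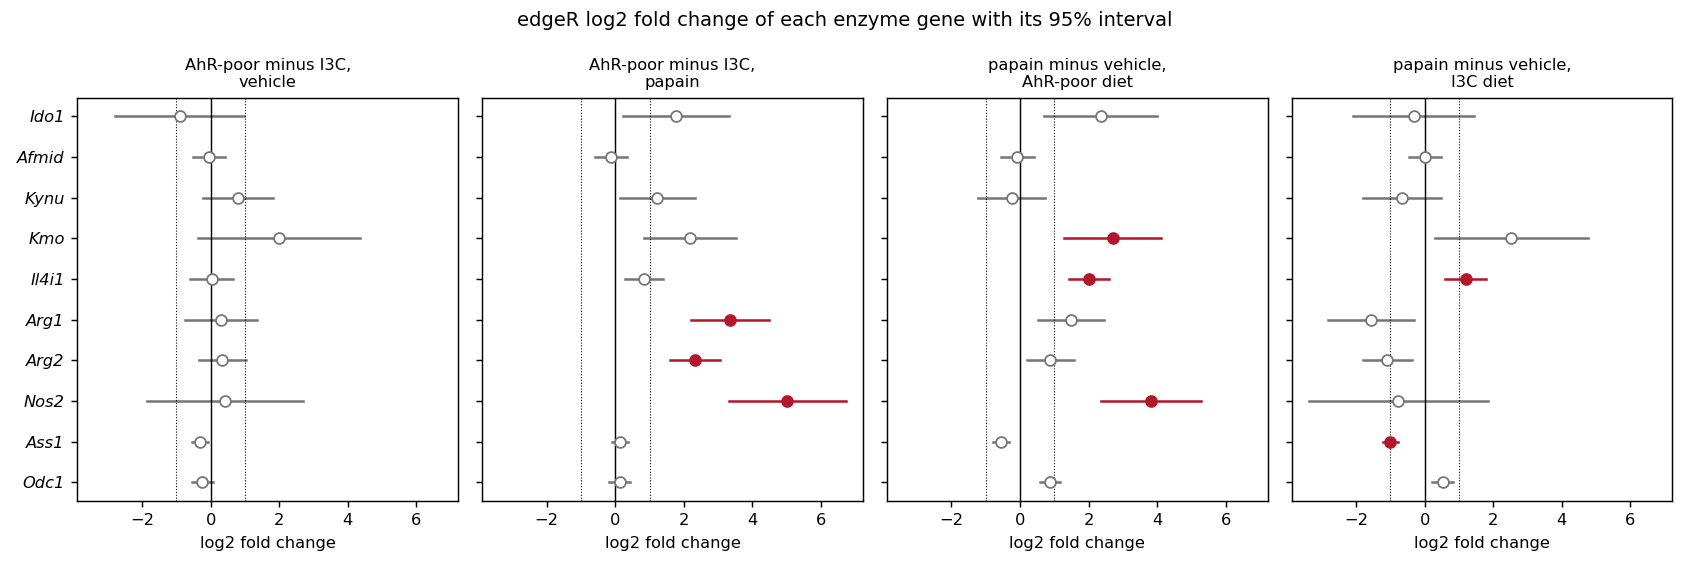
log2 fold change of the 10 enzyme genes (horizontal axis) in 4 comparisons, with the 95% interval as a line. Filled red points are genes called and dotted lines mark the minimum fold change. With vehicle no gene was called, and between the diets with papain Arg1, Arg2 and Nos2 were called, while Kmo, Ido1 and Kynu also lay to the right of the line without a call. Values of genes at the floor in both groups, such as Nos2 between the vehicle groups, are fitted values that depend on the prior count.

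Ido1, the enzyme that opens the kynurenine route (chr8:24584136-24597009, minus strand, in GRCm38 like all positions here), was close to the detection floor. It had 5 to 15 counts per library with papain on the AhR-poor diet, at 0.123 CPM in T104, 0.285 in T105, 0.303 in T107 and 0.163 in T112. With papain on the I3C diet it had 1 to 3 counts, at 0.0321 to 0.0856 CPM, and with vehicle on the AhR-poor diet 0 to 3 counts. The 4 AhR-poor papain libraries thus lay above both groups, at least 2.65-fold above I3C papain and at least 2.77-fold above AhR-poor vehicle when those groups are taken at the floor of 3 counts per library (exact permutation p = 0.0286 for each). Neither difference passed the edgeR threshold, with adjusted p = 0.127 and 0.0375. With vehicle on the I3C diet, T108 alone had 9 counts (0.258 CPM) and the other libraries 0 to 2.

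Kmo, the hydroxylase that makes 3-hydroxykynurenine (chr1:175620381-175662116, plus strand), rose with papain on the AhR-poor diet. It was at 0.566, 0.417, 0.303 and 0.462 CPM in T104, T105, T107 and T112, and with vehicle at 0, 0.159, 0.0989 and 0 CPM in T100 to T103. The papain libraries all lay above the vehicle libraries, with a log2 fold change of 2.70 (SE 0.72, edgeR adjusted p = 0.00697) and a ratio of means of 6.79. Leaving out T101, the highest vehicle library, took that ratio to 13.3, and the call was lost in 6 of the 16 fits without a library (T100, T102, T103, T104, T105 or T112), with adjusted p up to 0.0215. On the I3C diet Kmo had 0 to 6 counts per library with papain and 0 to 2 with vehicle, at least 1.15-fold higher with papain when vehicle is taken at the floor (adjusted p = 0.0962). The difference between the fitted papain responses was 0.17 (unadjusted p = 0.987), so the rise was not shown to differ between the diets. Between the papain groups it was 4.54-fold higher in AhR-poor mice, without overlap between the groups, at an adjusted p of 0.0303 that missed the threshold.

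Kynu, the kynureninase (chr2:43555329-43682715, plus strand), was not called in any comparison. Its level after papain was nearly the same in the 4 AhR-poor libraries, 0.398 to 0.492 CPM, and uneven in the I3C libraries, with 0.487 CPM in T106 against 0.128, 0.0856 and 0.0497 in T113, T114 and T115. With all libraries the diets differed by 1.22 on the log2 scale (SE 0.56, adjusted p = 0.134), and without T106 by 2.38 (adjusted p = 0.00497), so this value rests on T106. With vehicle it ranged from 0.349 to 0.900 CPM on the AhR-poor and from 0.144 to 0.586 CPM on the I3C diet, and these groups overlapped.

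Afmid, the formamidase between Ido1 and kynurenine (chr11:117825924-117839908, plus strand), was not called in any comparison. Its group means were 1.07 ± 0.288 (SD, n = 4) and 1.03 ± 0.181 CPM with vehicle and papain on the AhR-poor diet, and 1.09 ± 0.178 and 1.11 ± 0.236 CPM on the I3C diet. The groups overlapped in all 4 comparisons and the log2 fold changes lay between -0.13 and 0.02. Their 95% intervals reached from -0.60 to 0.49, so changes past the minimum fold lay outside them. In the GENCODE annotation, 1566 of the 3539 exonic bases of Afmid are shared with Gm20708 on the same strand, so reads there could have been counted on either.

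Il4i1, the oxidase that makes indole-3-pyruvate, rose with papain on both diets. On the AhR-poor diet it went from 0.681, 0.741, 0.544 and 0.724 CPM in the vehicle libraries to 3.47, 1.54, 3.12 and 2.77 CPM in T104, T105, T107 and T112. On the I3C diet it went from 0.373, 0.663, 0.571 and 1.02 CPM to 1.22, 2.02, 1.66 and 1.17 CPM in T106, T113, T114 and T115. Papain and vehicle did not overlap on either diet. The rise was 4.05-fold on the AhR-poor diet (log2 fold change 2.01, SE 0.30, edgeR adjusted p = 4.06e-05) and 2.31-fold on the I3C diet (1.20, SE 0.31, adjusted p = 0.00433). The I3C call was lost when 1 library was left out in 5 of 16 fits, without T108, T109, T110, T113 or T114 in turn, at adjusted p up to 0.0219, whereas the AhR-poor call was kept in all 16. With papain the diets differed by 0.84 on the log2 scale (SE 0.28, adjusted p = 0.0401), with overlap between the groups, and the difference between the 2 papain responses was 0.81 (SE 0.43, unadjusted p = 0.0744, adjusted p = 0.419).

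The counts of Il4i1 are uncertain because its exons overlap those of other genes. It lies at chr7:44816387-44840809 (plus strand), and 3505 of its 4080 exonic bases overlap exons of Atf5 and Tbc1d17 on the opposite strand. A further 97 bases are shared with Nup62 on the same strand, where no strand setting can separate the reads. The libraries were stranded, but the strand setting of the counting is not given in the sources used here. Tbc1d17, at 29.3 to 47.0 CPM on average per group, was lower with papain by 0.47 on the AhR-poor and 0.68 on the I3C diet (log2), the opposite direction to Il4i1, while Atf5 was higher by 0.90 and 1.03. Nup62, at 59.9 to 72.3 CPM on average per group, was at 0.24 on the AhR-poor diet (edgeR adjusted p = 0.0485) and 0.08 on the I3C diet (adjusted p = 0.545). The part of these neighbours in the Il4i1 counts was not tested. Beside the Il4i1 rise, the summed level of 5 migratory dendritic cell markers went from 8.74 to 14.2 CPM with vehicle to 41.8 to 69.1 CPM with papain on the AhR-poor diet and from 6.70 to 12.5 to 35.3 to 63.6 CPM on the I3C diet, with 2 of the 5 called higher on each diet. T105, the lowest AhR-poor papain library for Il4i1, was also the lowest of them for these markers. Their part in the result was not tested.

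With papain, both arginases were higher in the AhR-poor mice. Arg1, the cytosolic arginase (chr10:24915221-24927484, minus strand), was at 0.640, 1.92, 1.43 and 1.01 CPM in the AhR-poor papain libraries T104, T105, T107 and T112. In the I3C papain libraries it was at 0.365 CPM in T106 and at 0.0321, 0.0285 and 0.0249 CPM, 1 count each, in T113, T114 and T115. The groups did not overlap, and T106 stood about midway between the other I3C libraries and the lowest AhR-poor library. The ratio of means was 11.1, with a log2 fold change of 3.35 (SE 0.58, edgeR adjusted p = 0.000441). Without T106 the other I3C papain libraries were at the floor, the AhR-poor group exceeded them at least 14.6-fold and the log2 fold change was 5.32. The call was kept in all 16 fits without a library.

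With vehicle, Arg1 overlapped between the diets, at 0.223 to 0.736 CPM on the AhR-poor and 0.287 to 0.420 CPM on the I3C diet (log2 fold change 0.30, SE 0.54, adjusted p = 0.914). Papain went with opposite shifts on the diets, neither of them called: the log2 fold change was 1.49 (SE 0.49, adjusted p = 0.0255) on the AhR-poor diet and -1.57 on the I3C diet (SE 0.64, adjusted p = 0.0665). The difference between the responses was 3.06 (SE 0.81, unadjusted p = 0.00135, adjusted p = 0.112) and passed only without T106, at 5.03 (adjusted p = 0.00492). Without T106 both papain values of Arg1 were also called, at -3.54 on the I3C diet (adjusted p = 0.000385) and in the other direction on the AhR-poor diet (adjusted p = 0.00258).

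Arg2, the mitochondrial arginase and the more abundant of the pair (chr12:79130777-79156301, plus strand), was at 17.3, 32.6, 17.4 and 7.07 CPM in T104, T105, T107 and T112 with papain on the AhR-poor diet. On the I3C diet it was at 6.21, 3.01, 2.65 and 3.06 CPM in T106, T113, T114 and T115. These groups did not overlap, but T112 and T106 came within 1 CPM of each other. The AhR-poor mean was 4.98-fold higher, with a log2 fold change of 2.31 (SE 0.37, edgeR adjusted p = 0.000471), a call kept in all 16 fits without a library and lost in the fit of only the 8 papain libraries (adjusted p = 0.0142).

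With vehicle, Arg2 averaged 10.1 ± 1.43 CPM (SD, n = 4) in AhR-poor mice and 7.99 ± 0.862 CPM on the I3C diet, and the groups overlapped (adjusted p = 0.790). With papain on the I3C diet all 4 libraries lay below the 4 vehicle libraries, at a log2 fold change of -1.09 (SE 0.37, adjusted p = 0.0322, exact permutation p = 0.0286) that missed the threshold. That fall was called in DESeq2, in the fit of only the 8 libraries and without T105, T106 or T112 in turn, at adjusted p down to 0.00346, and without T106 its size was -1.46. On the AhR-poor diet the papain libraries lay on both sides of the vehicle libraries (0.88, SE 0.35, adjusted p = 0.0684), and without T112 the rise was called (1.15, adjusted p = 0.003). The difference between the responses was 1.97 (SE 0.51, unadjusted p = 0.00166, adjusted p = 0.124), and it passed in DESeq2 (1.99, adjusted p = 0.00214) and without T112 (2.24, adjusted p = 0.00583). Arg2 shares 401 of its 1428 exonic bases with Vti1b and Gm48780 on the opposite strand. Vti1b was not called between the diets, with a log2 fold change of -0.03 with papain (adjusted p = 0.806).

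Nos2, the inducible nitric oxide synthase (chr11:78920787-78960254, plus strand), was seen above the floor only in the AhR-poor papain group. It had 22, 18, 5 and 6 counts in T104, T105, T107 and T112, or 0.542, 0.341, 0.216 and 0.163 CPM. The other 12 libraries had 0 to 2 counts each. Taken at the floor of 3 counts per library, Nos2 was at least 3.83-fold higher than with papain on the I3C diet (edgeR adjusted p = 0.000395) and at least 4.0-fold higher than with vehicle on the AhR-poor diet (adjusted p = 0.000555), and both calls were kept in all 16 fits without a library. The vehicle groups of both diets and the I3C papain group were all at the floor, so fitted values between them depend on the prior count and are not read as folds.

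Markers of myeloid and stromal cells also differed between the diets. With vehicle, where Arg1, Arg2 and Nos2 were not called, some markers were already called higher on the AhR-poor diet. These were 5 of the 10 monocyte and macrophage, 0 of the 8 neutrophil, 8 of the 8 fibroblast and 1 of the 5 mast cell markers. Between the diets with papain, 9 of the 10 monocyte and macrophage markers, 5 of the 8 neutrophil markers, 8 of the 8 fibroblast markers and 5 of the 5 mast cell markers were called higher on the AhR-poor diet. By library, the order ran together in part: T105 was highest for Arg1, Arg2 and the macrophage sum (252 CPM), T112 was lowest for Arg2 and the macrophage sum (80.4 CPM), and in the I3C papain group T106 was highest for Arg1, Arg2 and the macrophage sum (30.6 CPM, against 7.56 to 17.96 CPM). Nos2 had 1 count in T106 and 0 in T113, T114 and T115, which gives no order. The neutrophil sum of T106, 40.1 CPM, was below those of T113 (44.3 CPM) and T114 (47.9 CPM). In Arg1 the lowest AhR-poor papain library was T104, and in Nos2 the highest was T104, so the order was not the same for every enzyme. The neutrophil sums of the I3C papain libraries, 36.2 to 47.9 CPM, were above those of both vehicle groups. They rest on part of the list: 2 of the 8 markers were called higher with papain on that diet, and Ly6g, Ngp and Camp were at 0. Nos2 in the I3C papain group was at the floor. The part of these cell types in the Arg1, Arg2 and Nos2 values was not tested.

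**Figure D3:**
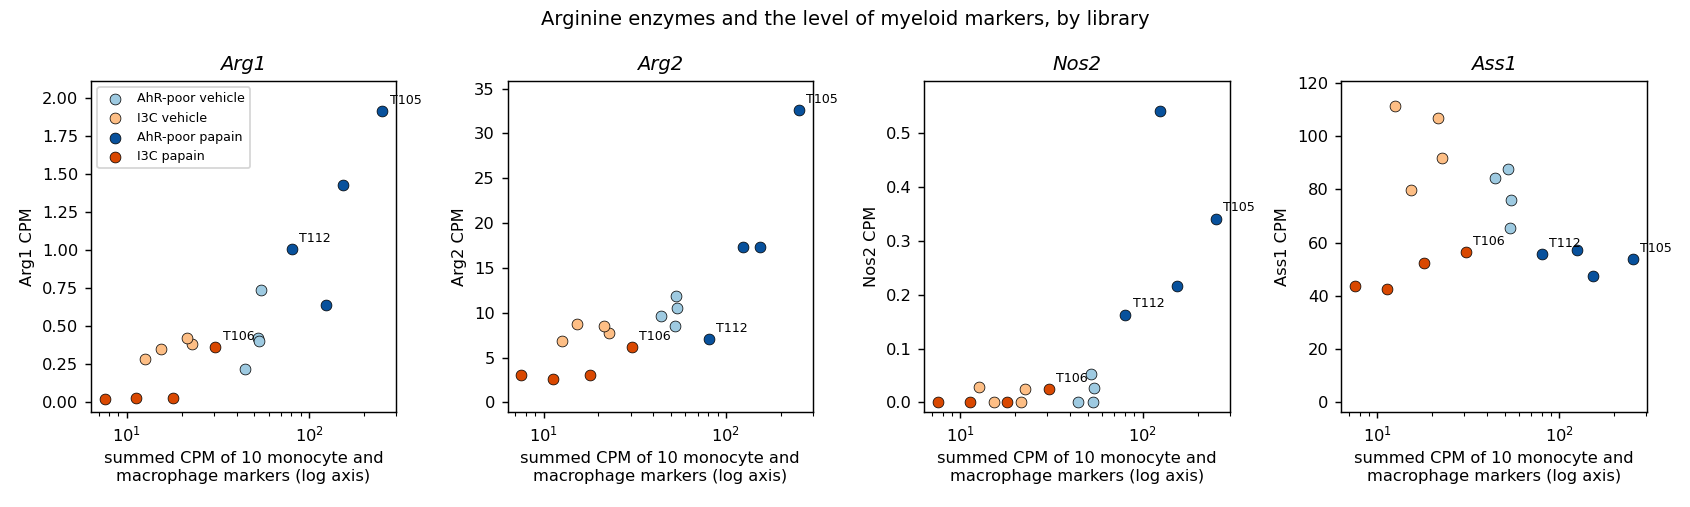
CPM of Arg1, Arg2, Nos2 and Ass1 (vertical axes) against the summed CPM of 10 monocyte and macrophage markers (horizontal log axis), with 1 point per library coloured by group. T105 lay at the upper right for Arg1 and Arg2, T106 was the rightmost I3C papain library, and Ass1 was at 42.6 to 57.2 CPM in the papain libraries over the whole range of the markers.

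Ass1, which joins citrulline to aspartate on the way back to arginine (chr2:31470207-31520672, plus strand), was abundant and was lower with papain on both diets. On the I3C diet it was at 111.4, 91.7, 79.8 and 106.9 CPM in T108 to T111 with vehicle and at 56.4, 52.1, 42.6 and 43.6 CPM in T106, T113, T114 and T115 with papain. On the AhR-poor diet it was at 76.0, 87.5, 84.1 and 65.5 CPM in T100 to T103 and at 57.2, 53.9, 47.3 and 55.8 CPM in T104, T105, T107 and T112. Every papain library lay below every vehicle library of its diet. The I3C difference was called, with a log2 fold change of -1.001 (SE 0.12, edgeR adjusted p = 1.94e-06), and lay on the minimum fold itself: it was just under that minimum in 7 of the 16 fits without a library (T101, T104, T105, T108, T111, T114 or T115) and in 5 of the 6 other fits, with the smallest size at -0.93 and adjusted p of at most 0.000103. The AhR-poor difference was -0.55 (SE 0.12, adjusted p = 0.0012), under the minimum fold. The responses differed by 0.45 (SE 0.16, unadjusted p = 0.0125, adjusted p = 0.254).

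Odc1, the ornithine decarboxylase (chr12:17544794-17551505, plus strand), was the most abundant of the 10. It was at 172, 134, 136 and 119 CPM in T100 to T103 with vehicle on the AhR-poor diet and at 283, 259, 278 and 211 CPM in T104, T105, T107 and T112 with papain, with no overlap. On the I3C diet it was at 219, 152, 126 and 163 CPM in T108 to T111 and at 222, 278, 231 and 216 CPM in T106, T113, T114 and T115, where the vehicle library T108 reached into the papain group. The papain means were 1.84-fold higher on the AhR-poor diet (log2 fold change 0.88, SE 0.15, edgeR adjusted p = 0.000244) and 1.43-fold higher on the I3C diet (0.52, SE 0.15, adjusted p = 0.0122). The first value missed only the minimum fold, which it reached without T100 (1.004), and the second missed both limits. The diets differed by -0.24 with vehicle and 0.12 with papain, with 95% intervals from -0.53 to 0.06 and from -0.17 to 0.42, so differences of the minimum fold lay outside them.

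The promoter windows of Odc1 and Ass1 are shown because these genes carried the highest levels and differed with papain in opposite directions in a design that varies ligands of AhR. The 250 bases before the RefSeq start site (GRCm38.p6, plus strand for both) are written below in lower case, with capitals for each GCGTG, the core of the AhR binding motif, on either strand (CACGC on the other) and each CACGTG, the E-box.
Odc1 chr12:17544623-17544872: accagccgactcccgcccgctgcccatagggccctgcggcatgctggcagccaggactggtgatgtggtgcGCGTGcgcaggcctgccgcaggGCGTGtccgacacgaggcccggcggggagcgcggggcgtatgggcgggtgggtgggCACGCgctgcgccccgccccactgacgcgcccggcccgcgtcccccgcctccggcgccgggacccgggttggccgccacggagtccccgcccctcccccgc
Ass1 chr2:31470020-31470269: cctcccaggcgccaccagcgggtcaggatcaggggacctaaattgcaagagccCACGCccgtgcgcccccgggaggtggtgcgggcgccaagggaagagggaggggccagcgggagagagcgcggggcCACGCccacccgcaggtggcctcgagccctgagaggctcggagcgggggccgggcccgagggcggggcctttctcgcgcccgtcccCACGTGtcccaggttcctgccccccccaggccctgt
The Odc1 window held GCGTG 3 times, the farthest 179 bases and the next 157 bases before the start, and no CACGTG. The Ass1 window held GCGTG 2 times, 197 and 122 bases before the start, and CACGTG 36 bases before it. No 2 of these matches overlapped. Of 32851 RefSeq windows reaching from 250 bases before to 50 bases after a start, 32.4% held GCGTG and 7.15% CACGTG on either strand. Windows were matched for 5 of the 10 genes, and those of Afmid, Il4i1 and Kmo held neither motif. Over the full 300 bases, the Odc1 and Ass1 windows were 78.0% and 74.0% G or C, with 42 and 27 CG pairs. The windows of Afmid, Il4i1 and Kmo were 44.3% to 59.7% G or C, with 3 to 18 CG pairs. Each of these motifs holds a CG pair, so the shares over all windows are not matched for base content. No window was matched for Arg1, Arg2 or Nos2, the enzymes called between the diets with papain. TGANTCA and TTCNNNGAA, the AP-1 and STAT motifs, were in none of the 5 windows and in 7.81% and 8.3% of all. Neither Odc1 nor Ass1 was called between the diets.

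Other genes of the same pathways were followed by lists of genes that are not among the 10. Of the 22 listed for tryptophan uptake, use and sensing, 18 were tested, and 1 was called higher on the AhR-poor diet with papain, 2 rose with papain on the AhR-poor diet and 1 on the I3C diet, with none called with vehicle and none lower. Over all genes, 7.15% were called higher on the AhR-poor diet with papain and 1.59% with vehicle. With papain, 6.04% rose and 2.42% fell on the AhR-poor diet, and 3.69% and 5.29% on the I3C diet. Gpr35, a receptor that kynurenic acid can activate, went with papain from 6.47 ± 1.18 to 27.5 ± 4.06 CPM in AhR-poor mice (SD, n = 4, log2 fold change 2.09, SE 0.20, adjusted p = 1.16e-06) and from 7.15 ± 1.397 to 28.1 ± 8.64 CPM on the I3C diet (1.97, SE 0.20, adjusted p = 9.78e-07). Tph1, the first enzyme of serotonin synthesis outside the brain, was at 0.940 ± 0.423 CPM with papain on the AhR-poor diet, 8.23-fold above vehicle (adjusted p = 0.000553) and at least 11.4-fold above I3C papain, where it was at the floor (adjusted p = 0.000121). Without T100, the AhR-poor vehicle libraries were at the floor for Tph1 and the rise was at least 12.1-fold. Beside Tph1, the 5 mast cell markers summed to 4.87 to 17.3 CPM with papain on the AhR-poor diet, to 0.778 to 4.14 CPM with vehicle on the AhR-poor diet and to at most 0.122 CPM in the I3C libraries. Their part in the result was not tested.

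Of 20 genes listed for arginine transport, the urea cycle, nitric oxide and proline, 18 were tested. On the AhR-poor diet 4 rose with papain and 0 fell, on the I3C diet 3 rose and 3 fell, with papain 1 was higher on the AhR-poor diet, and with vehicle 0 were called. The shares of all genes were 6.04% and 2.42% on the AhR-poor diet and 3.69% and 5.29% on the I3C diet. Between the diets, 7.15% were called higher with papain and 1.59% with vehicle. Gch1, the first enzyme of the cofactor that nitric oxide synthases need, rose from 10.2 ± 0.936 to 34.0 ± 2.49 CPM in AhR-poor mice (SD, n = 4, log2 fold change 1.73, SE 0.13) and from 7.45 ± 1.78 to 34.8 ± 2.80 CPM on the I3C diet (2.22, SE 0.13). Ddah1, which breaks down methylated arginines that block nitric oxide synthases, rose 9.43-fold on the AhR-poor diet and 7.81-fold on the I3C diet, whereas Ddah2, its relative, fell on the I3C diet (log2 fold change -1.18, SE 0.18, adjusted p = 3.23e-05) and was at -0.34 on the AhR-poor diet (adjusted p = 0.145). Aldh18a1, which starts proline and ornithine synthesis from glutamate, rose 2.01-fold and 2.61-fold, and its AhR-poor value lay on the minimum fold, with ratios of 1.87 to 2.12 when 1 library was left out (1.87 without T100). Gch1, Ddah1 and Aldh18a1 were called on both diets with all libraries, at adjusted p of at most 1.43e-06.

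Nos3, the endothelial nitric oxide synthase, followed the diet. It was at 6.90 ± 3.52 CPM with papain on the AhR-poor diet against 0.445 ± 0.139 on the I3C diet, 15.5-fold higher (log2 fold change 3.96, SE 0.35, adjusted p = 5.14e-07), and rose 4.70-fold with papain on the AhR-poor diet (adjusted p = 1.88e-05) while it was at -0.17 on the log2 scale on the I3C diet (adjusted p = 0.781). The difference between these responses was 2.42 (SE 0.50, adjusted p = 0.0409) and missed the threshold. Nos3 shares 1334 of its 4132 exonic bases with Atg9b and Gm15587 on the opposite strand. The 6 endothelial markers summed to 19.4 to 49.96 CPM with papain and 10.2 to 28.7 CPM with vehicle on the AhR-poor diet, and to at most 2.19 CPM on the I3C diet, with 6 of 6 called higher on the AhR-poor diet under each treatment, and their part in the Nos3 values was not tested.

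All 13 polyamine genes listed beside Odc1 were tested, and on each diet 1 rose with papain and 1 fell, with 0 called between the diets. Over all genes, 6.04% rose and 2.42% fell on the AhR-poor diet, and 3.69% and 5.29% on the I3C diet. With 13 genes, 1 call each way is not read as a result about the pathway. Smox, which oxidises spermine, rose from 40.0 ± 2.97 to 136 ± 27.6 CPM in AhR-poor mice (SD, n = 4, log2 fold change 1.77, SE 0.16) and from 42.6 ± 9.68 to 111.1 ± 16.5 CPM on the I3C diet (1.38, SE 0.16). Oaz2, an antizyme that binds ornithine decarboxylase and takes it to degradation, fell from 73.2 ± 7.31 to 33.1 ± 2.49 CPM (-1.14, SE 0.10) and from 80.4 ± 12.5 to 31.5 ± 2.89 CPM (-1.35, SE 0.10), at adjusted p of at most 4.89e-06 for Smox and 2.22e-07 for Oaz2.

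**Figure D4:**
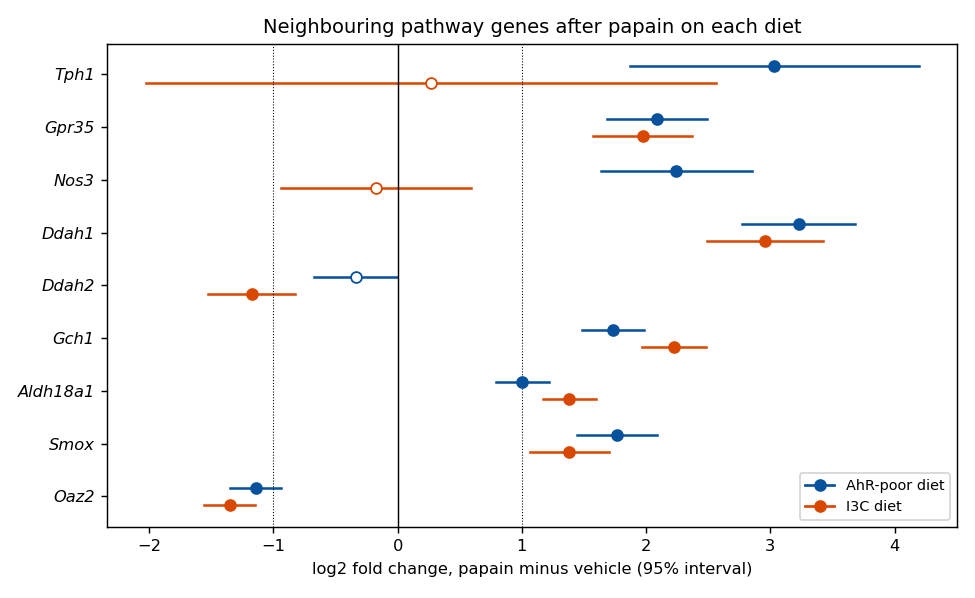
log2 fold change of papain against vehicle (horizontal axis, with the 95% interval) for the 9 named genes of the 3 pathway lists, on the AhR-poor (blue) and the I3C diet (orange). Filled points are genes called. Gpr35, Ddah1, Gch1, Aldh18a1 and Smox rose and Oaz2 fell on both diets, while Tph1 and Nos3 were called on the AhR-poor diet alone and Ddah2 on the I3C diet alone, and their difference between the papain responses did not pass the test.

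The difference between the papain responses was called for none of the 10 enzymes in edgeR, where 0.0181% of all genes were called higher and 0% lower. At an unadjusted p under 0.05, 5 of the 10 were higher (Ido1, Arg1, Arg2, Nos2 and Ass1) and 0 lower, against 7.41% and 6.07% of all genes. Among these, Nos2 was at the floor in every group but AhR-poor papain, so its fitted value depends on the prior count. Ido1 was near the floor, with 9 counts in T108 alone of the I3C vehicle group. Its value of 2.68 went as low as 0.78 with a library left out. DESeq2 called 1, Arg2, higher and 0 lower, against 0.903% and 0.0226% of all genes.

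For the 5 enzymes that averaged at least 1 CPM, the 3 genes with the most similar course over the 16 libraries were sought among 13026 genes at that level, by Pearson's correlation of log2(CPM + 0.5). These points share group and library, so the values are a description. Nearest to Il4i1 were Ccl22 (0.95), Cd63 (0.94) and Ccr7 (0.93). Nearest to Arg2 were Il1r2 (0.953), Fcgr3 (0.951) and Il1rn (0.946). Odc1 ran with Tuba1c (0.979), Mmp3 (0.967) and Sdcbp (0.963), and Ass1 with Nusap1 (0.978), Gas2l3 (0.976) and Ckap2l (0.976). Afmid had no close match, its nearest being Tdrd1 at 0.718.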

How the data were processed

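Epidermal cells of the footpad of 16 mice were sequenced as stranded, paired-end mRNA libraries. The paper states that several sequencing units were used. Which library ran in which unit is not known here, so no batch term was fitted. The authors checked reads with FastQC, aligned them with STAR to mm10 and deposited raw counts per gene, without normalization. The counting tool, annotation release and strand setting are not given in the sources used here. Groups were taken from the sample labels. The values were checked to be whole numbers with unequal totals. Of 50600 identifiers, 50376 matched a symbol in GENCODE M21 (GRCm38, the same build) and 224 did not.

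The filter required 10 counts or more over all libraries. Counts were scaled with TMM factors and fitted with 1 mean per group in edgeR 4.0.16 (R 4.3.3), with the robust quasi-likelihood F test and p-values adjusted by Benjamini-Hochberg over all 22155 genes. The SE is the absolute log2 fold change divided by the square root of F, and 95% intervals are 1.96 SE. A fold is a lower bound, taken against 3 counts per library, if no library of one group had more than 3. The fit was tested on simulated data, where changes were put only into genes with higher mean counts than Ido1, Kmo, Kynu and Nos2. That test therefore does not bear on the calls of Kmo and Nos2.

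The 10 enzymes, the pathway lists and the marker lists (basal and suprabasal keratinocytes, monocytes and macrophages, neutrophils, dermal fibroblasts, endothelial cells, mast cells, Langerhans cells, migratory dendritic cells, T cells) were chosen with earlier results of these data known. All 10 were named, with at most 5 genes of each pathway list, those with the largest fold change among the genes called in any of the 4 comparisons. Results were recomputed with DESeq2 1.42.0, with RLE factors or library size only, with filterByExpr or a filter of 1 count, in fits of the 8 libraries of a comparison, with a p limit of 0.05, with no fold limit, and without each library in turn.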

Additional observations from a re-analysis of the deposited data

Results flagged for a closer look

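Of 40 sets of 4 libraries (10 genes in 4 groups), 5 held a library far from the other 3 by Dixon's ratio of its gap to the whole range, past its 95% critical value. For continuous values chance flags about 1 in 20 such sets. Among them, 3 concerned T106 in the I3C papain group, which was the highest for Arg1 (ratio 0.973, 0.365 CPM), for Arg2 (ratio 0.840, 6.21 CPM) and for Nos2 (ratio 1.0, from 1 count). The same library was the highest of its group for the monocyte and macrophage markers. In the AhR-poor papain group T107 was the highest for Afmid (ratio 0.929, 1.298 CPM). In the I3C vehicle group T109 was the only library with Kmo (ratio 1.0, 0.0510 CPM, from 2 counts). The ratios of 1.0 for Nos2 and Kmo follow from the other 3 libraries being at 0, so that rate does not apply to them.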

How the results depend on the processing

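No paired analysis was possible because no replicate code occurs in more than 1 group. Of 278 values of the 10 enzymes under other settings, 265 kept their direction and side of the threshold, 7 lost and 3 gained a call and 3 changed sign, and of 800 values with 1 library left out the numbers were 748, 18, 10 and 24. The number of enzymes called between the diets was 0 in each direction with vehicle under every alternative, and with papain 2 to 4 higher and 0 lower. For papain on the AhR-poor diet 3 rose, or 5 at an adjusted p below 0.05, 4 without a minimum fold (Odc1 added), 2 with filterByExpr, which dropped Nos2, and 2 to 4 with a library left out, and 0 fell, or 1 (Ass1) without a minimum fold. For papain on the I3C diet 1 rose, or 0 in the fit of only the 8 libraries compared and 0 to 1 with a library left out. There 1 fell, or 0 with RLE factors, with every gene of at least 1 count and with filterByExpr, 2 at an adjusted p below 0.05 (Ass1 and Arg2) and 0 to 3 with a library left out. The 1 that fell was Ass1, but Arg2 in its place in DESeq2 and in the fit of only the 8 libraries. The interaction was called for 0, or 1 (Arg2) in DESeq2, and for 0 to 1 with a library left out, Arg1 without T106 and Arg2 without T112. Ass1 crossed the minimum fold by its size alone, and the cause of the other shifts was not tested.

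The values that changed sign were not called. With library size only, Afmid was 0.0097 between diets with vehicle, its papain value on the I3C diet was -0.023, and in DESeq2 the Kmo interaction was -0.027. With a library left out, Afmid ranged from -0.25 to 0.0073 between diets with papain, from -0.21 to 0.11 with vehicle, from -0.22 to 0.10 for papain on the AhR-poor diet, from -0.12 to 0.12 on the I3C diet and from -0.24 to 0.082 in the interaction. Between diets with vehicle, Arg1 ranged from -0.059 to 0.51, Ido1 from -1.45 to 0.99, Il4i1 from -0.15 to 0.32 and Nos2, at the floor in both groups, from -0.51 to 0.89. Ido1 ranged from -0.75 to 1.57 for papain on the I3C diet, reversed by leaving out T108. Kynu ranged from -0.39 to 0.11 for papain on the AhR-poor diet and from -0.10 to 1.59 in the interaction, and the Kmo interaction from -2.17 to 1.02.

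Over all genes, the interaction moved from 4 higher and 0 lower to 200 and 5 in DESeq2, 60 and 3 at an adjusted p below 0.05, 10 higher with library size only, 7 higher with every gene of at least 1 count, and 2 to 95 higher with a library left out (95 without T112, the highest). Genes higher on the AhR-poor diet with vehicle went from 352 to 595 in DESeq2 and 582 at an adjusted p below 0.05, and genes lower from 0 to 6 and 5. With a library left out the former ranged from 193 (without T110) to 430 (without T106), past 1.5 times without T100, T108, T109, T110 or T111. With papain the lower genes went from 22 to 11 with library size only, 70 at an adjusted p below 0.05, 680 without a minimum fold, and 6 (without T104) to 34 (without T106) with a library left out, past 1.5 times also without T113, T114 or T115. Without a minimum fold, 2749 genes rose and 2228 fell with papain on the AhR-poor diet and 2821 and 2864 on the I3C diet. Ido1, Kmo and Nos2 rest on 57 to 95 counts in all 16 libraries, so differences between groups at the floor were not detectable at this depth.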
